A study of Mus musculus with 4 samples.

Results

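The genes described here are p53 (*Trp53*) and 9 genes that belong to its pathway, namely *Mdm2*, *Mdm4*, *Ccng1*, *Phlda3*, *Zmat3*, *Trp53inp1*, *Sesn1*, *Sesn2* and *Plk2*. They were taken from a list of 10 gene symbols, and every transcript of the deposited table that carries such a symbol was used, which gave 18 of 34200 transcripts and 10 of 21945 genes. All 10 genes were found in the table, 5 of them with 1 tested transcript and 5 with several. p53 is a transcription factor that is held at a low level because MDM2 marks it for degradation and MDM4 blocks its activity. When DNA damage or other stress frees it, p53 switches on genes for cell cycle arrest, repair, apoptosis and metabolic control, and also *Mdm2*, which closes a negative feedback loop. NIH/3T3 cells are an immortal line of mouse fibroblasts that keeps p53 and has lost the *Cdkn2a* locus, whose product ARF restrains MDM2.

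The study asked what the loss of SETD2, a histone H3 lysine methyltransferase, does to transcripts in these cells. NIH/3T3 cells at a confluency of 80% were transfected either with a pair of siRNAs against *Setd2* (KD) or with a non-targeting Scrambled siRNA (WT in the labels), at 10 nM in both cases, and lysed 48 h later. Polyadenylated RNA from 4 transfections, 2 KD and 2 WT, was sequenced, and the series describes transfections as independent, so the spread between libraries is that between transfections of 1 cell line. The tables used give no value for a single library, so library depth is unknown and it was not examined whether KD and WT libraries overlap. The deposited tables give for each transcript a mean over the libraries, the effect of the knockdown with its standard error (SE), and Sleuth's likelihood ratio and Wald q-values, from which group levels in normalised estimated counts, log2(fold change) of KD relative to WT and 95% confidence intervals (CI) were computed. The CI use the normal quantile times the deposited SE. With 2 libraries in each group they may be too narrow, and wider intervals from a t distribution were not computed. A transcript or gene was called at a likelihood ratio q-value under 0.05. The standard deviation (SD) given beside a level or effect is the spread between libraries of 1 group on the log2 scale, computed from the deposited variance and effect.

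The labels were checked on *Setd2* and on cell type markers. *Setd2* (ENSMUST00000153838.7) stood at 923 normalised estimated counts after knockdown, against 3680.4 in WT, a log2(fold change) of −1.99 ± 0.09 (SE), with a likelihood ratio q of 0.0103 from Sleuth. All 9 fibroblast markers were in the table, with a summed level of 1137128 in KD and 1267459 in WT. Averaged over both groups, the most abundant was the fibronectin gene *Fn1*, at 388093 in KD and 276425 in WT, although the collagen gene *Col1a2* stood higher in WT, at 346235, and the least abundant was *Pdgfrb*, at 3501 in KD and 2723 in WT. Of 12 markers of epithelium, blood, endothelium, muscle, fat and glia, 7 were tested, with a summed level of 838.0 in KD and 777.6 in WT. The most abundant of these was *Cd68*, at 391 in KD and 303 in WT, and *Epcam*, *Krt5*, *Myog*, *Adipoq* and *Sox10* were not in the table. Among the fibroblast markers, 3 genes (*Fn1*, *Fbln2* and *Pdgfrb*) had a transcript called higher and 3 collagen genes (*Col1a1*, *Col1a2* and *Col3a1*) a transcript called lower in KD. After division by *Actb*, the summed levels of *Fbln2* and *Pdgfrb* lay below WT, with log2(fold changes) of −0.27 and −0.09, while that of *Fn1* was 0.03. The part of these markers in the results on p53 was not tested. Because whole cultures were measured, fewer cells that express a gene and less RNA of it per cell cannot be told apart.

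In KD, 3 transcripts of the p53 group were called, and all 3 were higher, namely a *Trp53* transcript with an alternative end, the major *Mdm2* transcript and *Phlda3*. These are p53 itself, its main inhibitor and a p53 target that restrains the AKT kinase. The 3 calls are 16.7% of 18 transcripts, while 12.5% of all transcripts in the table were called in either direction and 7.26% were called higher. Of the 18, 16 had a mean of 100 normalised estimated counts or more. Among such transcripts 12.7% were called higher in the table as a whole and 18.8% in the group, so the share of calls was near the background and says nothing particular of the group. No member transcript was called lower by Sleuth's likelihood ratio test (0), where 9 of the 18 had an unadjusted p under 0.05, 5 higher and 4 lower. No share of all transcripts was determined at that unadjusted threshold, so nothing particular to the group can be read from the 9. limma's moderated test, computed from the deposited values, also called 0 lower, and Sleuth's Wald test, which called 18.2% of all transcripts, called 4 of the 18, of which 1 was lower (*Ccng1*). In the likelihood ratio test restricted to a mean of at least 100, 4 of 16 were higher and 2 lower (*Ccng1*, q = 0.0312, and *Plk2*, q = 0.0391). Among all 18808 such transcripts 3768 were higher and 2672 lower. After division by *Actb* the Wald test called 0 of the 18 higher and 9 lower, against 627 higher and 10840 lower among all 34200 transcripts. That test takes the *Actb* effect as exact and leaves out its SE of 0.11, so its adjusted p-values do not carry the error of the reference. The effects of the 18 were of both signs, 8 above and 10 below 0. Their median log2(fold change) was −0.014, against −0.011 over all transcripts.

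The q-values for whole genes, in which the authors combined the p-values of a gene's transcripts, gave 5 calls among the 10 genes, against 24.0% of all genes. By their summed level, *Mdm2*, *Phlda3* and *Trp53inp1* were higher in KD and *Ccng1* and *Plk2* lower. That is 3 of 10 higher, against 13.6% of all genes, and 2 of 10 lower, against 10.4% of all genes. All 10 genes have a mean summed level of at least 100, and among genes with such a level 41.3% were called, 23.8% higher and 17.5% lower, so with 10 genes nothing particular to the group can be read from these counts. The gene q-value was 0.00703 for *Phlda3*, 0.0166 for *Mdm2*, 0.0361 for *Trp53inp1*, 0.0363 for *Ccng1* and 0.0466 for *Plk2*. The Wald version of the gene q-value, looked at after the values had been seen, left out *Plk2* (0.147) and took in *Trp53* (0.000184), so the call on *Plk2* ends with that choice. In limma's test of the transcripts, 2 genes were called, *Trp53* and *Phlda3*, an alternative that changed both the test and the unit tested. The calls on *Ccng1*, *Trp53inp1* and *Plk2* already end in Sleuth's likelihood ratio test of transcripts (q = 0.0534, 0.0532 and 0.0662). The call on *Mdm2* ends in limma's test (adjusted p = 0.0713), with the same log2(fold change). The direction of the 3 higher genes depends on the scale. The *Actb* transcript used as a reference was itself called higher in KD, by 0.46 ± 0.11 (SE; likelihood ratio q = 0.0310 in Sleuth). Division by it moved every log2(fold change) by that amount, left 0 of the 5 called genes above WT, and turned *Mdm2* to −0.16, *Phlda3* to −0.012 and *Trp53inp1* to −0.26. Centring on the median effect of well measured transcripts, a shift of 0.05, turned none of the 5 called genes.

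**Figure D1:**
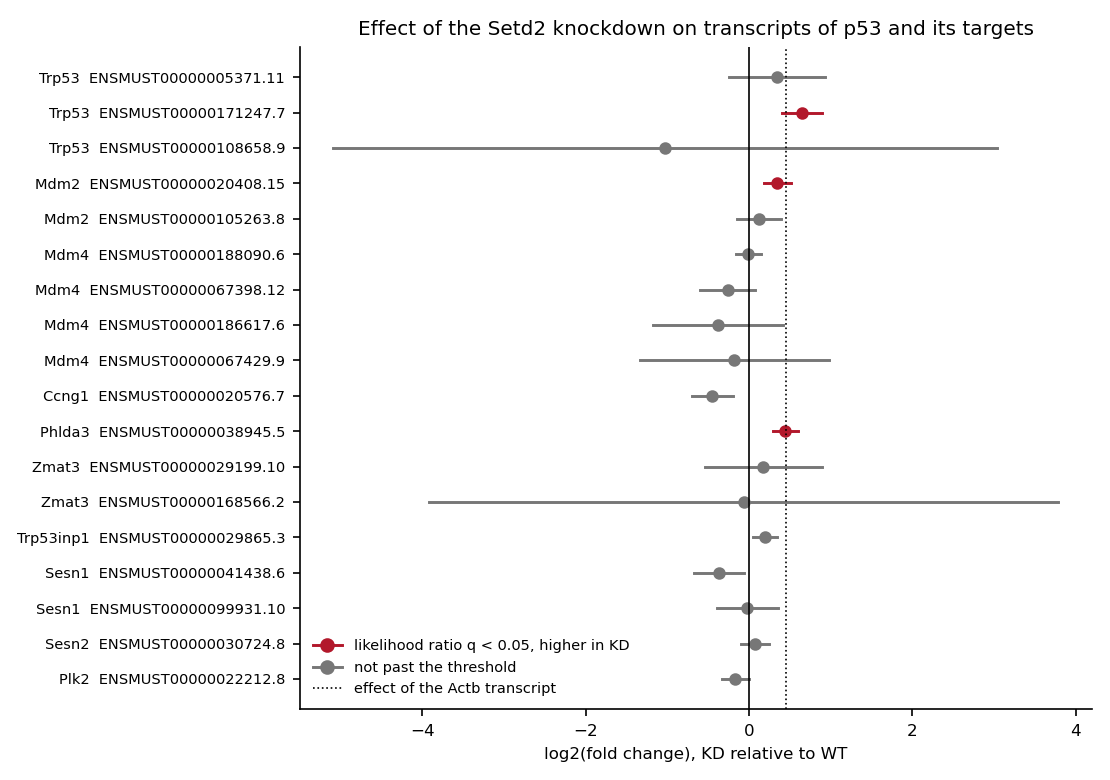
log2(fold change) of KD relative to WT for the 18 transcripts (points) with 95% CI from the deposited standard errors (bars), coloured by Sleuth's likelihood ratio q-value, with the effect of the *Actb* transcript as a dotted line. The 3 called transcripts lie above 0, but only that of *Trp53* (0.65) lies to the right of the *Actb* line, and after division by *Actb* those of *Mdm2* and *Phlda3* lie below 0.

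*Trp53* was tested as 3 transcripts that start at the same base on the plus strand of chromosome 11, 69580359 in GRCm38 (GENCODE M21), and have 11 exons each. ENSMUST00000005371.11 and ENSMUST00000108658.9 share 1771 bases and differ by 1 base at their 3′ end. In ENSMUST00000171247.7 the last exon starts 96 bases earlier, a splice choice known in the mouse, which replaces the last residues of p53, a region that regulates binding to DNA. The annotated start codon of ENSMUST00000005371.11 lies 9 bases downstream of that of the other two. Both coding ends are shown because the called transcript differs there: 40 bases of the exon before the last are in lower case, and the coding bases of the last exon, up to the stop codon, are in capitals (plus strand; chr11:69591350-69591428 in the regular form and chr11:69591254-69591305 in the alternative form).

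Trp53 regular end: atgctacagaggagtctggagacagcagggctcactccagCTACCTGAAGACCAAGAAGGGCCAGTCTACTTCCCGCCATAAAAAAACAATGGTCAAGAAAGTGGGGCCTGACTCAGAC
Trp53 alternative end: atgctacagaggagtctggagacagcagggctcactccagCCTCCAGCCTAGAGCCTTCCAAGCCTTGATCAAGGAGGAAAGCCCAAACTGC

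The alternative form, ENSMUST00000171247.7, stood at 2504 normalised estimated counts in KD against 1601 in WT. This is a log2(fold change) of 0.65 ± 0.12 (SE; SD between libraries 0.11), or a level 56.4% higher with a 95% CI from 32.1% to 85.2%. Sleuth's likelihood ratio q was 0.0228 and limma's adjusted p 0.0347. It was called in every alternative but division by *Actb*, where its log2(fold change) of 0.19 was still above 0 but had an adjusted p of 0.261 in the Wald test. The main form, ENSMUST00000005371.11, had more counts, 6319 in KD and 4975 in WT, and a log2(fold change) of 0.35 ± 0.30 (SE), which was not called (likelihood ratio q = 0.329) and turned to −0.11 after division by *Actb*. Of the variance of its effect, 93.7% came from the assignment of reads between isoforms. The minor form ENSMUST00000108658.9, at 269 in KD and 548 in WT, had an SE of 2.08 around a log2(fold change) of −1.03, so its level is hardly measured.

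The regular forms can hardly be told apart by sequence, since 1 of 1742 and 0 of 1741 of their 31-base words occur in no other tested transcript, against 123 of 1837 (6.70%) in the alternative form. Summed, the regular forms reached 6588 normalised estimated counts in KD, against 5523 in WT, a log2(fold change) of 0.25 that was not tested and lies below the 0.46 of *Actb*. The alternative form made up 27.5% of the *Trp53* counts in KD and 22.5% in WT, a difference of 5.07 percentage points. With the other forms held fixed, 1 SD between libraries amounts to 1.45 points for the alternative form, 2.12 for the main form and 7.26 for the minor form ENSMUST00000108658.9. Against the main form alone, a comparison chosen after the values had been seen, the alternative form made up 28.4% in KD and 24.3% in WT, and the log2(fold changes) of these forms lie 0.30 ± 0.33 (SE, with both effects taken as independent) apart. As a gene, *Trp53* summed to 9092 in KD and 7124 in WT, a log2(fold change) of 0.35 with a likelihood ratio gene q of 0.0762, which was not called and turned to −0.10 after division by *Actb*. Of the words of the alternative form, 18.8% also occur in *Trp53-ps*, a processed pseudogene that was not among the tested genes.

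*Mdm2* and *Mdm4* encode the inhibitors of p53. *Mdm2*, on the minus strand of chromosome 10 (117688875 to 117710758), was tested as 2 transcripts of 12 exons with the same start. The level of ENSMUST00000020408.15 was 9184 normalised estimated counts in KD, against 7229 in WT, with a log2(fold change) of 0.35 ± 0.08 (SE) and a 95% CI from 0.18 to 0.51. This rise of 27.0% was called by Sleuth (likelihood ratio q = 0.0390), not by limma (adjusted p = 0.0713), and turned to −0.11 after division by *Actb*. The other transcript, ENSMUST00000105263.8, holds 46 more bases, which move the annotated start codon from exon 3 to exon 4. It had 2525 in KD and 2321 in WT, a log2(fold change) of 0.12 ± 0.14 (SE; likelihood ratio q = 0.183). After division by *Actb* this turned to −0.33, with an adjusted Wald p of 0.0463 that leaves out the SE of *Actb* (0.11). Whether that call holds with this SE was not tested. The major form therefore made up 78.4% of the gene in KD and 75.7% in WT.

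*Mdm4*, on the minus strand of chromosome 1, had 4 tested transcripts, of which 0 were called on the deposited scale by Sleuth's likelihood ratio or Wald test or by limma, and 1 had an unadjusted likelihood ratio p under 0.05. The major one, ENSMUST00000188090.6, stood at 7342 in KD and 7391 in WT. The log2(fold change) between them was −0.0097 ± 0.08 (SE), with a 95% CI from −0.16 to 0.14, and it turned to 0.14 once effects were centred on GC content (adjusted p = 0.261), while division by *Actb* moved it to −0.47, where the Wald test called it lower (adjusted p = 2.35e-08). The CI leaves room for a change of up to 10.6% downward and 10.4% upward on the deposited scale. ENSMUST00000067398.12, which ends sooner, had 1215 in KD and 1455 in WT (log2(fold change) −0.26 ± 0.17 (SE), likelihood ratio q = 0.254; −0.72 after division by *Actb*, adjusted p = 0.000183), and the remaining *Mdm4* transcripts had levels between 35.1 and 58.8. The Wald tests after division by *Actb* leave out the SE of *Actb* (0.11). Whether these *Mdm4* calls as lower hold with this SE was not tested. *Mdm4* shares up to 27.6% of its words with the pseudogene *Mdm4-ps*, which was tested and had 19.9 in KD and 27.0 in WT.

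Cyclin G1 and the polo-like kinase PLK2 act in growth control, and their genes had the highest levels of the group. *Ccng1*, on the minus strand of chromosome 11 (40748552 to 40755311), stood at 31830.4 normalised estimated counts in KD, against 43391 in WT. Its single tested transcript had a log2(fold change) of −0.45 ± 0.13 (SE), which is 26.6% lower with a 95% CI from 12.8% to 38.3%. The transcript q-value of 0.0534 from Sleuth's likelihood ratio test lay just outside the threshold, the Wald q of 0.00402 and the gene q inside, and after centring on GC content the log2(fold change) shrank to −0.24 (adjusted p = 0.237). It was below 0 under each scaling tried. The Wald test of *Plk2* after division by *Actb*, given next, leaves out the SE of *Actb* (0.11). *Plk2*, on the plus strand of chromosome 13 (110395046 to 110400844), had 30793 in KD and 34608 in WT. This log2(fold change) of −0.17 ± 0.08 (SE) came with a likelihood ratio q of 0.0662 for the transcript and 0.0466 for the gene, and was also below 0 under each scaling (−0.62 after division by *Actb*, adjusted p = 2.65e-12).

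PHLDA3, TRP53INP1 and ZMAT3 are linked to cell death and growth suppression. PHLDA3 competes with AKT for membrane lipids, TRP53INP1 is a nuclear protein that promotes apoptosis and autophagy, and ZMAT3 is a zinc finger protein that binds RNA and affects splicing. *Phlda3*, on the plus strand of chromosome 1 (135766119 to 135769136), had 5718 normalised estimated counts in KD, against 4204 in WT. Its log2(fold change) of 0.44 ± 0.08 (SE; 95% CI from 0.29 to 0.60) had the smallest likelihood ratio q of the 18 transcripts, 0.0156, with 0.0301 in limma, and its libraries differed little within a group (SD 0.0096). Centring on GC content lowered the log2(fold change) to 0.26 (adjusted p = 0.00877). After division by *Actb* it was −0.012, so *Phlda3* and *Actb* were higher in KD by nearly the same factor. *Trp53inp1*, on the plus strand of chromosome 4 (11156431 to 11174379), stood at 8329 in KD and 7269 in WT, a log2(fold change) of 0.20 ± 0.08 (SE). The transcript q of 0.0532 was just outside the threshold. Centring on GC content raised it to 0.56 (adjusted p = 1.99e-11), since the trend at its GC content of 38.8% lay at −0.37, whereas division by *Actb* turned it to −0.26 (adjusted p = 0.00333). The Wald test of *Trp53inp1* after division by *Actb* leaves out the SE of *Actb* (0.11). Whether its call as lower holds with this SE was not tested. *Zmat3*, on the minus strand of chromosome 3, was not called by any test. Its main transcript ENSMUST00000029199.10 had 5577 in KD and 4934 in WT, with a log2(fold change) of 0.18 (95% CI from −0.54 to 0.89) that turned to −0.28 after division by *Actb*. The 95% CI of its other transcript ran from −3.91 to 3.79, so changes inside these ranges remain possible.

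The sestrins are stress-inducible proteins that restrain mTORC1 signalling and help the defence against oxidants. *Sesn1*, on the plus strand of chromosome 10, has tested transcripts from 2 start sites, and ENSMUST00000041438.6 starts 77504 bases downstream of ENSMUST00000099931.10. The downstream form had 586 normalised estimated counts in KD, against 758 in WT, a log2(fold change) of −0.37 ± 0.16 (SE; 95% CI from −0.68 to −0.07). It was not called by Sleuth's likelihood ratio test (q = 0.0980), was called by the Wald test once effects were centred on their median (adjusted p = 0.0410) or divided by *Actb* (−0.83, adjusted p = 1.05e-06), and stayed below 0 under each scaling. The upstream form had 506 in KD and 512 in WT, a log2(fold change) of −0.02 ± 0.19 (SE; likelihood ratio q = 0.419). After division by *Actb* this was −0.47, with an adjusted Wald p of 0.0385 that leaves out the SE of *Actb*. Whether that call holds with this SE was not tested. The share of the downstream form was 53.7% in KD and 59.7% in WT, a difference of −6.00 points, larger than 1 SD between libraries of either form (2.09 and 3.23 points, each with the other form held fixed) and the largest change of share in the 5 genes with several tested transcripts. The 95% CI of the log2(fold changes) of the forms overlap (−0.68 to −0.07 downstream, −0.39 to 0.35 upstream), and the difference between them was not tested. The Wald tests of the downstream form and of *Sesn2* after division by *Actb* also leave out the SE of *Actb*. *Sesn2*, on the minus strand of chromosome 4 (132492032 to 132510501), had 4638 in KD and 4408 in WT. Its log2(fold change) of 0.07 ± 0.09 (SE; likelihood ratio q = 0.135) turned to −0.38 after division by *Actb* (adjusted p = 6.12e-05) and to −0.11 after centring on GC content.

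**Figure D2:**
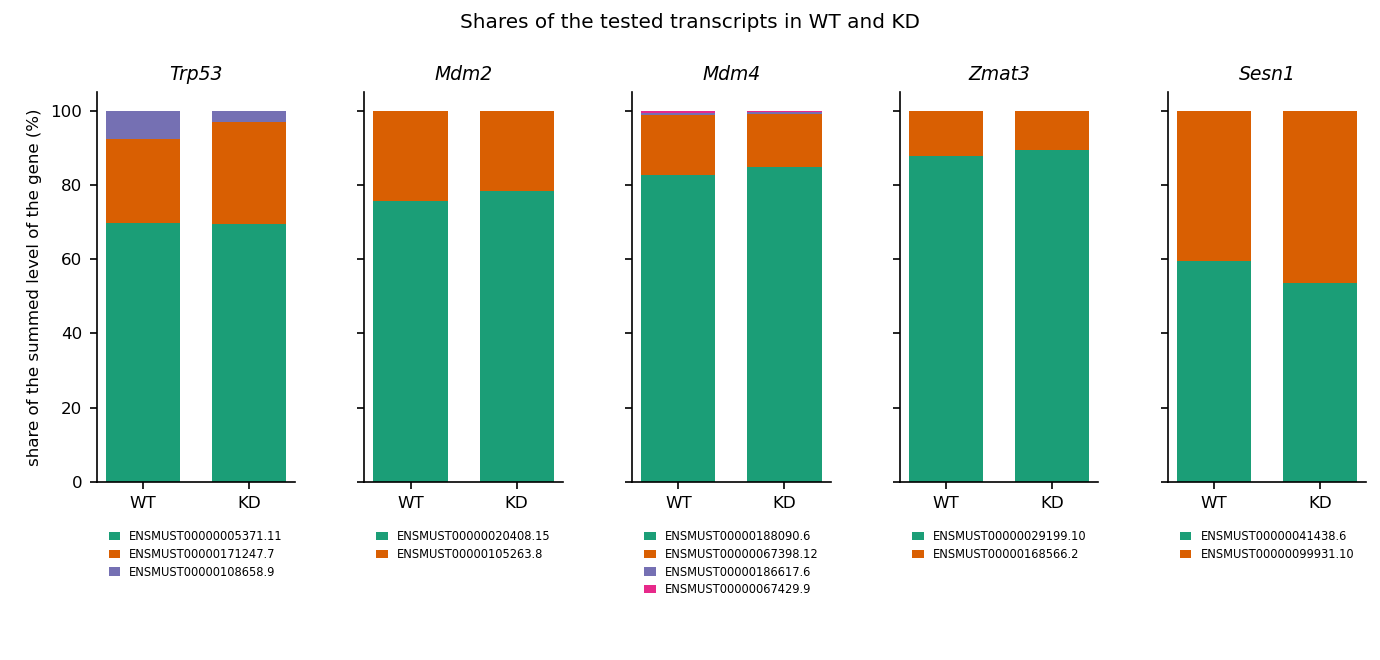
Share of each tested transcript in the summed level of its gene (stacked bars, in %) in WT and KD, for the 5 genes with several tested transcripts; no error bars are drawn. The alternative *Trp53* form ENSMUST00000171247.7 takes 22.5% in WT and 27.5% in KD, and the downstream *Sesn1* form ENSMUST00000041438.6 takes 59.7% in WT and 53.7% in KD.

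Per kilobase, levels were compared for the most abundant transcript of each gene only, with its other tested transcripts left out. That of *Plk2* stood at 11659 normalised estimated counts per kilobase over both groups and that of *Ccng1* at 10582. *Phlda3* (3417), *Trp53* (3164) and *Mdm2* (2629) formed the next step of the order. *Trp53inp1* (1440), *Sesn2* (1301), *Mdm4* (1037) and *Zmat3* (673) followed, and *Sesn1* (256) was lowest. Among the transcripts left out, the alternative *Trp53* form stood at 1341 per kilobase in KD and 857 in WT. *Mdm2* ENSMUST00000105263.8 stood at 803 and 738, and *Mdm4* ENSMUST00000067398.12 at 635 and 760. An order of genes over all tested transcripts, in which such genes would stand higher, was not computed. Neighbours in this order differed by more than their spread between libraries, apart from *Phlda3* and *Trp53*, whose gap of 0.11 on the log2 scale was smaller than their joint SD of 0.14. This spread leaves out the estimated error of read assignment, which was 93.7% of the variance of the effect for the *Trp53* transcript. Whether its gap of 0.27 to *Mdm2* exceeds that error was not tested. The gap between *Plk2* and *Ccng1*, 0.14, only just exceeded theirs (0.13), and in WT alone both stood at almost the same level, 12360.0 and 12355 per kilobase.

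**Figure D3:**
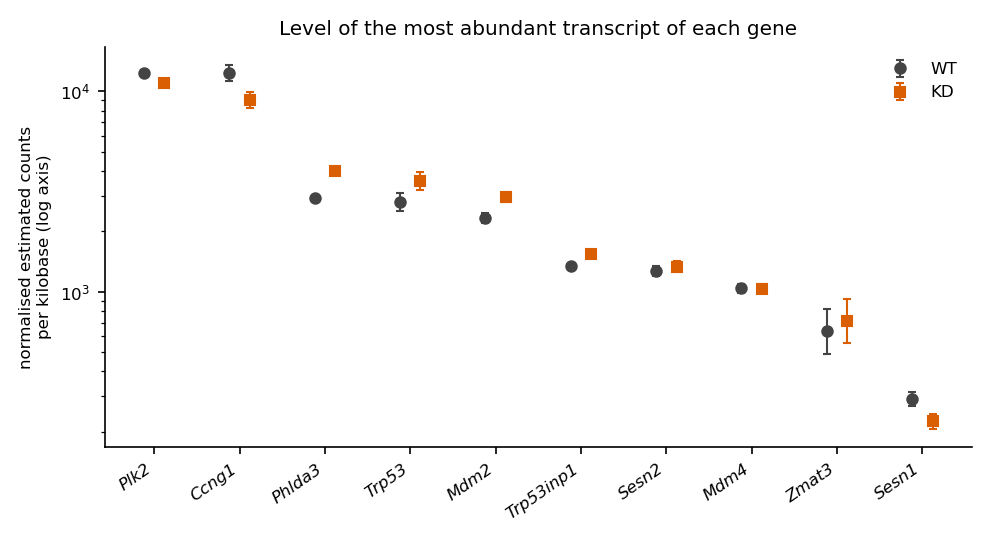
Level of the most abundant transcript of each of the 10 genes in WT (circles) and KD (squares), in normalised estimated counts per kilobase on a log axis; bars are 1 SD between the libraries of a group. *Plk2* and *Ccng1* lie highest and *Sesn1* lowest in both groups, and *Ccng1* lies lower in KD while *Phlda3* and *Mdm2* lie higher, which turns for these 2 genes after division by *Actb* (−0.012 and −0.11 on the log2 scale).

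The promoters were read for the half-site of the sequence that p53 binds, since most of these genes are known as its targets. RefSeq promoters (GRCm38.p6, 300 bases around the start of a gene) were found for 8 of the 10 genes by symbol, 10 windows in all, and *Zmat3* and *Trp53inp1* had no entry. The motif was the p53 half-site, a pattern that equals its own reverse complement, so both strands are read at once. It occurred in 4 of the 8 genes, against 9.55% of all 27025 symbols with a promoter. No window held more than 1 match, and full sites made of adjacent half-sites with mismatches were not searched for. By window, the motif occurred in 4 of the 10, against 8.36% of all 32851 promoters, and those 4 are shown with the half-site in capitals. They belong to *Trp53* (plus strand, chr11:69580109-69580408), *Mdm2* (minus strand, chr10:117710709-117711008), *Ccng1* (minus strand, chr11:40755237-40755536) and the downstream start of *Sesn1* (plus strand, chr10:41887189-41887488).

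Trp53 promoter: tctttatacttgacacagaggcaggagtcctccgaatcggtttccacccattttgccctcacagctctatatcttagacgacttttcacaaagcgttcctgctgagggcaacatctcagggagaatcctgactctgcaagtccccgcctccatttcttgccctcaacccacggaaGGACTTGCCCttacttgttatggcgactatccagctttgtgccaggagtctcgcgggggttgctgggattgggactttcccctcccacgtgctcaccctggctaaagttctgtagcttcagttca
Mdm2 promoter: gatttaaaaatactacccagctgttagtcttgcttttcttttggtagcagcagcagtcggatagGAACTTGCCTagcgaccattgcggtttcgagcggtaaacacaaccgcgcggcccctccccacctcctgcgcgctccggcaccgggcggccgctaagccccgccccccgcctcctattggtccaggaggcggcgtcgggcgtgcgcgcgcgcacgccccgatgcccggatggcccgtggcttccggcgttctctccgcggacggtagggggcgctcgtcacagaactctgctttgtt
Ccng1 promoter: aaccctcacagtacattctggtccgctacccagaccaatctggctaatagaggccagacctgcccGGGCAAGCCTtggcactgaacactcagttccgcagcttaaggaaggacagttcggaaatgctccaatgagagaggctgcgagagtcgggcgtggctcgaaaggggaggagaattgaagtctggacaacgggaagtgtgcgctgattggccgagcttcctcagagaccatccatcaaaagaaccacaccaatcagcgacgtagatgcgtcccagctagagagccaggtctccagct
Sesn1 downstream promoter: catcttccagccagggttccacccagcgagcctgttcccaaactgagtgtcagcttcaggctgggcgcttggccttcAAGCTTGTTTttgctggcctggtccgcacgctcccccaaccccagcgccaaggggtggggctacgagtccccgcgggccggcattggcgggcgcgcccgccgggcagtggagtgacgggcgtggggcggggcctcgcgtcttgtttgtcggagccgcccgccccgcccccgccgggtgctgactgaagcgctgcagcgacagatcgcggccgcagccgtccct

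The half-site lies 75 bases upstream of the gene start in *Trp53*, 186 in *Mdm2*, 185 in *Ccng1* and 173 in *Sesn1*. A match to these letters is a description of the window and not evidence of binding, and p53 is known to act on *Mdm2* through a promoter in the first intron, which this window does not hold. As genes with a half-site, *Mdm2* was called higher, *Ccng1* lower, and *Trp53* (gene likelihood ratio q = 0.0762) and *Sesn1* (0.0923) were not called. After division by *Actb* the summed levels of all 4 lay below 0, at −0.16 for *Mdm2*, −0.90 for *Ccng1*, −0.10 for *Trp53* and −0.67 for *Sesn1*. *Phlda3*, with the smallest q-value of the group, has no half-site in its window.

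**Figure D4:**
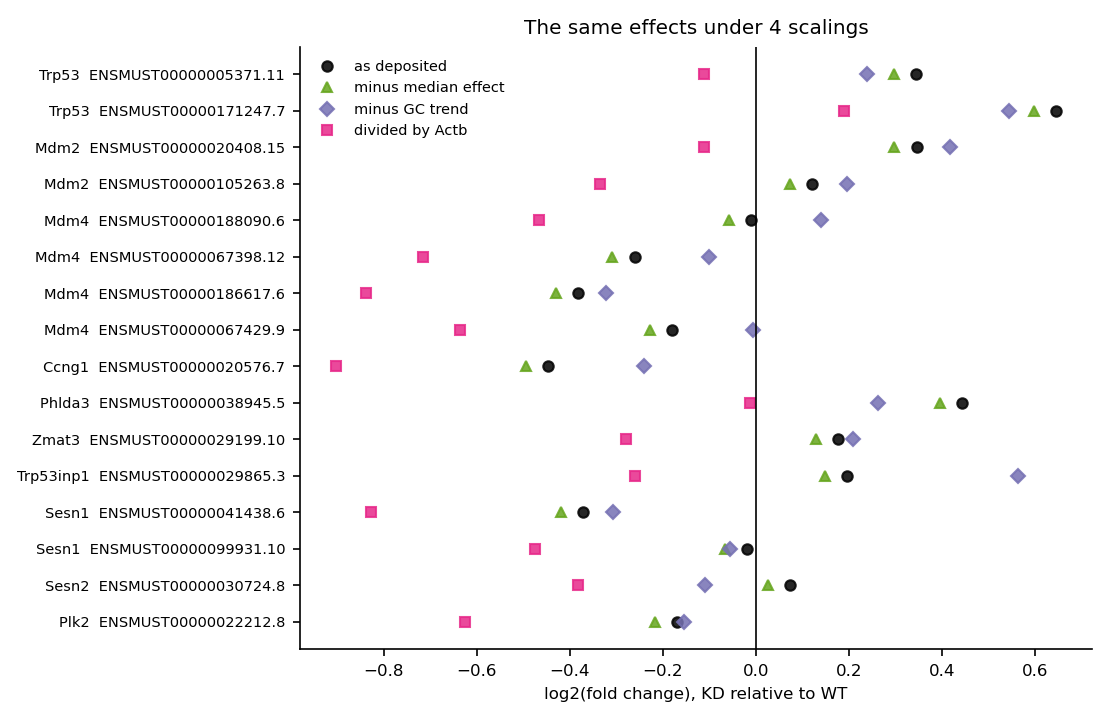
log2(fold change) of KD relative to WT for 16 transcripts as deposited (circles), minus the median effect (triangles), minus the trend with GC content (diamonds) and divided by *Actb* (squares); the 2 transcripts with an SE near 2 on the log2 scale are left out. Division by *Actb* leaves only the alternative *Trp53* form above 0, at 0.19, while *Ccng1*, *Plk2* and the downstream *Sesn1* form lie below 0 in all 4 scalings.

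Beyond the 10 genes, 85 further genes of the pathway stood in 7 lists written from general knowledge, and 79 of them were tested. Among all genes tested, 10.1% had a transcript called higher and 7.43% a transcript called lower, and summed gene levels had a median log2(fold change) of −0.03. Genes with a mean summed level of at least 100 had shares of 17.9% and 12.7% and a median of 0.04. Of the 10 members, 3 had a transcript called higher and 0 lower by Sleuth's likelihood ratio test, with a median of 0.11 that turned to −0.34 after division by *Actb*. The gene likelihood ratio q called 6 of 7 genes for arrest, 5 of 12 for apoptosis, 3 of 8 for repair, 5 of 13 for metabolism, autophagy and secreted factors, 1 of 5 for feedback, 18 of 29 for family and regulators and 1 of 5 for ribosomal proteins, against the 24.0% of all genes and 41.3% of those with a level of at least 100 given above. For counts of the lists in other settings, or at an unadjusted p, no share of all genes was determined. By transcript, the Wald test called 3566 of all 34200 higher and 2667 lower, and 627 and 10840 after division by *Actb*. After centring on the median effect it called 2969 higher and 3143 lower. At a mean of at least 100 the likelihood ratio test called 3768 of 18808 higher and 2672 lower.

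Among other p53 targets that act in cell cycle arrest, 7 of 8 were tested, 3 had a higher and 2 a lower transcript (4 and 2 by the Wald test, 1 and 4 in that test after division by *Actb*), and the median was 0.33 (−0.13 after division by *Actb*). *Gadd45a*, a stress sensor, rose by 0.73 ± 0.09 (SE; likelihood ratio q = 0.0141 in Sleuth), and was still 0.27 after division by *Actb*. *Btg2*, an antiproliferative gene, fell by 0.88 on the log2 scale (SE 0.15, likelihood ratio q = 0.0208). *Cdkn1a*, which encodes the cell cycle inhibitor p21 and is the best known arrest target of p53, had a transcript called in each direction. Its main transcript ENSMUST00000023829.7 stood at 14567 in KD and 11003 in WT, a log2(fold change) of 0.40 ± 0.10 (SE; likelihood ratio q = 0.0411) or −0.05 after division by *Actb*, a call that ends in limma's test (adjusted p = 0.0608), while the minor ENSMUST00000119901.8 fell from 655 to 406, a log2(fold change) of −0.69 ± 0.16 (SE; likelihood ratio q = 0.0266; limma adjusted p = 0.0369). The summed level of *Cdkn1a* was 0.34 above WT on the log2 scale and −0.12 after division by *Actb*.

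Of the apoptosis targets, 12 of 14 were tested, and 1 gene had a higher and 1 a lower transcript by the likelihood ratio test (3 and 1 by the Wald test, 4 and 1 among transcripts with a mean of 100 or more, 0 and 7 in the Wald test after division by *Actb*), with a median of 0.11 (−0.34 after division by *Actb*). *Aen*, a nuclease, had a transcript that rose by 0.52 ± 0.09 (SE; likelihood ratio q = 0.0214 in Sleuth), or 0.06 after division by *Actb*, and the death receptor gene *Tnfrsf10b* fell by 0.54 on the log2 scale (SE 0.08, likelihood ratio q = 0.0140). *Bax*, which opens the outer mitochondrial membrane, stood at 9488 in KD and 6991 in WT in its main transcript. Its log2(fold change) of 0.44 ± 0.14 (SE) was not called by the likelihood ratio test (q = 0.0676 in Sleuth), but was by the Wald test (q = 0.0132) and by the gene likelihood ratio q (0.0485), and the summed gene stood at −0.02 after division by *Actb*.

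Targets that act in repair and in metabolism or outside the cell had medians below 0. All 8 repair genes were tested, with a median of −0.21, and 0 had a higher transcript and 2 a lower one by Sleuth's likelihood ratio test. Its Wald test gave 0 and 3, or 0 and 8 after division by *Actb*, where it called 10840 of all 34200 transcripts lower. Centring on the median effect gave 0 and 4, with 3143 of all transcripts called lower. At an unadjusted likelihood ratio p under 0.05 the counts were 1 and 6, for which no share of all genes was determined. *Polk*, a translesion polymerase, fell by 0.57 on the log2 scale (SE 0.10, likelihood ratio q = 0.0146), and *Polh* was the other gene called by that test's q. Of the 13 metabolic, autophagy and secreted targets, 0 had a higher and 5 a lower transcript by the likelihood ratio test (1 and 5 by the Wald test, 0 and 9 in that test after division by *Actb*, and 2 and 6 at an unadjusted p under 0.05), with a median of −0.22. *Thbs1*, which encodes a secreted inhibitor of angiogenesis, fell by 1.55 on the log2 scale (SE 0.12, likelihood ratio q = 0.0103), from 61142 to 20857 normalised estimated counts. The medians of both lists were also below 0 after division by *Actb* (−0.66 and −0.67) and after centring on the median effect (−0.26 and −0.27).

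Other genes act on p53 itself. Of 6 targets that feed back on p53, 5 were tested and 1 was called higher, *Rchy1*, a ubiquitin ligase for p53, by 1.03 ± 0.09 (SE; likelihood ratio q = 0.0103 in Sleuth; 0.57 after division by *Actb*). The list's median was 0.13 (−0.33 after division by *Actb*, where the Wald test called 1 higher and 4 lower). Of 31 family members and upstream regulators, 29 were tested, 6 had a higher and 5 a lower transcript, and the median was 0.09. The Wald test gave 8 and 7, but 1 and 18 after division by *Actb*, where it called 627 of all 34200 transcripts higher and 10840 lower. That division moved the median to −0.37. *Usp10*, a deubiquitinase of p53, rose by 0.71 ± 0.09 (SE; likelihood ratio q = 0.0120), and by 0.26 after division by *Actb*, and *Setd7*, a lysine methyltransferase that acts on p53, fell by 0.68 on the log2 scale (SE 0.08, likelihood ratio q = 0.0113). *Wrap53*, which lies beside *Trp53* on the other strand, had 941 in KD and 791 in WT, a log2(fold change) of 0.25 (−0.20 after division by *Actb*) that was not called (likelihood ratio q = 0.181). *Cdkn2a*, the source of ARF, was not in the table.

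Ribosomal proteins that bind MDM2 under ribosomal stress made up the last list. All 5 genes were tested, and 0 had a called transcript in either direction by Sleuth's likelihood ratio test, against 1 lower by its Wald test (3 lower in that test after division by *Actb*), 1 gene (*Rps7*, summed log2(fold change) 0.012, or −0.44 after division by *Actb*) by the gene likelihood ratio q (0.0256), and 2 higher and 1 lower at an unadjusted likelihood ratio p under 0.05. *Rpl11* had a log2(fold change) of −0.27 ± 0.09 (SE; likelihood ratio q = 0.0726) and *Rpl5* one of 0.11 ± 0.18 (SE; likelihood ratio q = 0.678), which turned to −0.35 after division by *Actb*. The median of the 5 summed levels was 0.012, which turned to −0.04 after centring on the median effect and to −0.44 after division by *Actb*.

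**Figure D5:**
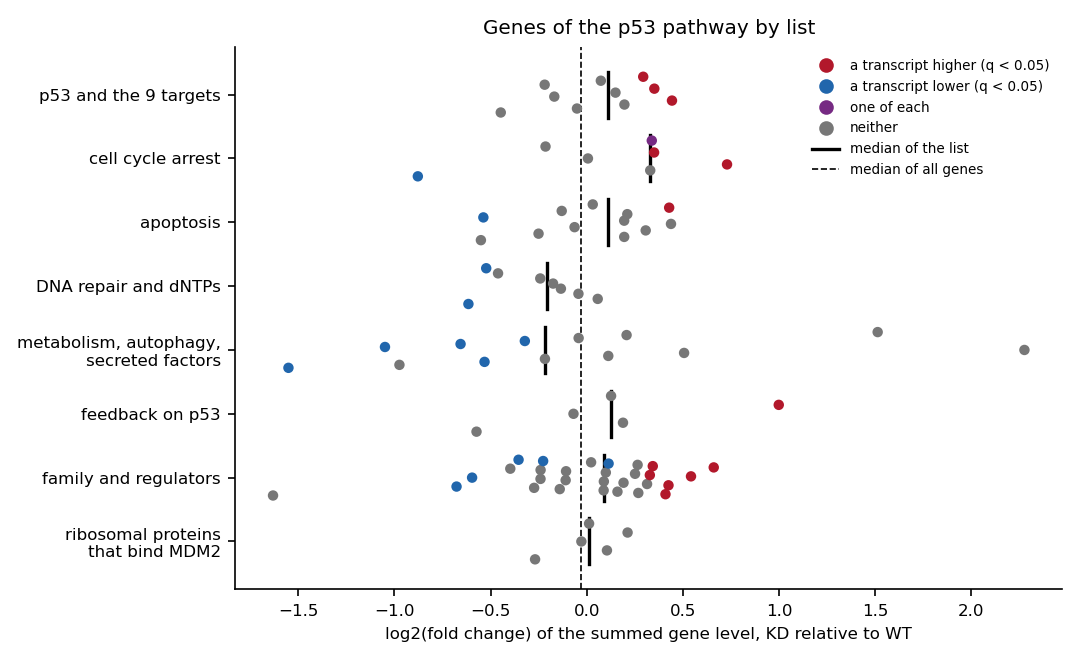
log2(fold change) of the summed level of each gene (points) in the p53 group and the 7 wider lists, coloured by whether a transcript was called higher, lower or both by Sleuth's likelihood ratio q-value; solid lines are list medians and the dashed line the median of all genes (−0.03). The arrest list has the highest median (0.33), and those of repair (−0.21) and of metabolism, autophagy and secreted factors (−0.22) lie below 0; division by *Actb* moves every point by −0.46 and all medians below 0.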

How the data were processed

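RNA-seq of NIH/3T3 cells, 2 KD and 2 WT libraries, was used as the authors deposited it. The authors assigned reads to transcripts and compared KD with WT in Sleuth without covariates, and the comparison columns used here are the authors' own. The deposited means, effects and standard errors are on the natural log scale of normalised estimated counts plus 0.5. Other columns of the authors hold variances on that scale. Each deposited p-value and q-value comes from the authors' Wald or likelihood ratio test of a transcript or, combined and without direction, of a gene. Recalculated likelihood ratio q-values differed from the deposited ones by at most 1.01e-14.

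Division by the natural log of 2 turned effects into log2(fold change). A level in KD or WT is the exponential of the mean plus or minus 0.5 times the effect, with 0.5 subtracted. Gene levels are sums over tested transcripts. limma 3.58.1 gave a moderated test with a trend on the mean, from the deposited means, effects and variances. Sequences, positions and 31-base words came from GENCODE M21, to which all 18 transcripts were matched by identifier and version, and promoters from RefSeq.

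The alternatives were the Wald and limma tests, a minimum mean of 100 normalised estimated counts, division by the most abundant *Actb* transcript, centring on the median effect, centring on 50 classes of GC content, other summaries of a gene and levels without the subtraction of 0.5. The Wald test after division by *Actb* took the *Actb* effect as exact and left out its SE. The gene Wald q-values and the scalings of summed gene levels and of the lists were chosen after seeing the data. The limma test, the Wald test and the adjustment of p-values were tested on simulated data, the Wald test there with the true standard error. Levels, shares, gene sums and scalings were not tested in this way. The genes named are all members with every tested transcript, *Setd2*, the called transcript with the largest rise and fall in each list above that minimum, and *Cdkn2a*, *Cdkn1a*, *Bax*, *Wrap53*, *Rpl5* and *Rpl11*. Genes named beside a small count outside this rule were chosen after their values were seen. The members and the gene lists were chosen with earlier results of these data known, so they are described by counts and medians and were not tested as sets. Depth per library is not given by the tables used, so no interval for counting error could be computed.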

Additional observations from a re-analysis of the deposited data

How the results depend on the processing

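No paired analysis was possible because the tables used give no value for a single library, and leaving out each library in turn was not run for the same reason. The log2(fold change) of *Setd2* kept its direction and side of the threshold under each alternative run for it. Isoform shares were not tested. By transcript, 3 calls (3 higher, 0 lower by Sleuth's likelihood ratio test) became 4 by the Wald test with 1 lower, and 6 with 2 lower at a mean of at least 100. limma's test gave 2 with 0 lower. In the Wald test they became 4 with 0 lower after centring on GC content and 5 with 2 lower after centring on the median effect. They became 9, 0 higher and 9 lower, in that test after division by *Actb*. The latter reversed *Trp53* ENSMUST00000005371.11 (−0.11), *Mdm2* ENSMUST00000020408.15 (−0.11) and ENSMUST00000105263.8 (−0.33), *Phlda3* (−0.012), *Zmat3* ENSMUST00000029199.10 (−0.28), *Trp53inp1* (−0.26) and *Sesn2* (−0.38). This follows from its construction, a shift of every effect by the 0.46 of *Actb*. Centring on GC content reversed *Mdm4* ENSMUST00000188090.6 (0.14) and *Sesn2* (−0.11). These reversals also follow from construction, since the trend subtracted, −0.15 and 0.18, was larger than the effects of −0.0097 and 0.07. Why effects varied with GC content was not tested. By gene, 5 calls (3 higher, 2 lower) became 2 with 0 lower in limma's test of transcripts, which changed both the test and the unit tested. Sleuth's likelihood ratio test of transcripts already called only 3 genes, with 0 lower. The gene Wald q-value gave 1 lower, and subtraction of the *Actb* effect left 0 higher and 5 lower. In the wider lists, 11 genes had a higher and 15 a lower transcript by the likelihood ratio test, and 20 and 20 at a mean of at least 100. The Wald test gave 17 higher and 19 lower, and 3 higher and 53 lower after division by *Actb*. It gave 15 higher and 25 lower after centring on the median effect and 11 higher and 19 lower after centring on GC content. Over all 34200 transcripts, it called 3566 higher and 2667 lower, and 627 and 10840 after division by *Actb*. After centring on the median effect it called 2969 and 3143 of them, and after centring on GC content 2935 and 2239 of 33720. Shares of all genes were not determined in these settings. With 2 libraries in each group and unknown depth, changes well inside the intervals of *Zmat3* and of the minor *Trp53* and *Mdm4* transcripts remain possible. No limit of detection was computed.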

Other observations

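The likelihood ratio test of the deposited table reached low p-values for some effects that were small beside their standard error. Of all transcripts, 16929 had an effect smaller than its standard error, and 1041 of these had an unadjusted likelihood ratio p under 0.05, while 0 had a likelihood ratio q under 0.05 in Sleuth. Among the 18 transcripts of the p53 group, 9 had such an effect, and 2 of them, *Mdm4* ENSMUST00000188090.6 (log2(fold change) −0.0097, unadjusted p = 0.0285) and *Sesn2* (0.07, unadjusted p = 0.0432), had a p-value from Sleuth's likelihood ratio test under 0.05. At the gene level, the likelihood ratio and Wald q-values in the authors' deposited table each called 5258 genes, of which 4639 were called by both. Of the genes called by the likelihood ratio, 178 had no transcript whose 95% CI left out 0.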
